A study of Mus musculus with 8 samples.

Results

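The genes described here are 5 eosinophil-associated ribonucleases (Rnase2a, Rnase2b, Ear1, Ear2 and Ear6) and 5 other genes that mark eosinophils (the granule proteins Prg2 and Epx and the surface receptors Ccr3, Siglecf and Il5ra). They were picked by name, and were chosen by their counts in Bach2KO against Bach2WT mice, so their difference between the genotypes is given as a description, and no test of it is used as support. Of the 10 genes, 7 had a row among the 21434 genes of the deposited table. Ear1, Ear6 and Epx had no row and were not analysed here, and since every row of the table held at least 2 counts in all, it cannot be said from the table whether a gene without one was at 0.

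RNA-seq was performed on pancreatic tissue of 8 untreated C57BL/6N mice aged 18 weeks, 4 Bach2KO and 4 Bach2WT mice. In each genotype, mice 1 and 2 were female and mice 3 and 4 were male. Bach2KO mice were homozygous for the allele Bach2tm1b(EUCOMM)Wtsi and lack Bach2, a transcriptional repressor of lymphocytes, in the whole body. Bach2WT mice were wild-type animals of the same strain, so a difference between the groups can arise in any organ or cell type that normally uses Bach2. Which of the 2 breeding facilities a mouse came from is not stated in the labels.

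Eosinophils are granulocytes that arise in the bone marrow, need the growth factor interleukin 5 and enter tissues along gradients of eotaxins, the ligands of Ccr3. Their granules hold basic proteins, among them major basic protein (Prg2), eosinophil peroxidase (Epx) and secreted ribonucleases of the RNase A superfamily. In rodents these ribonucleases have multiplied into a family of similar genes on a single chromosome, and some members, Ear1 and Ear2 among them, are also made by macrophages. Few eosinophils reside in a healthy pancreas, where acinar cells, which make digestive enzymes, supply most of the RNA.

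Because the ribonucleases are copies of one another, their sequences decide how well short reads can tell them apart. The first 60 coding bases of the 3 ribonucleases with a row are shown for this reason, read from GENCODE transcripts of the build GRCm38, with capitals where a base differs from Rnase2a at the same position.
Rnase2a, chr14:51255847-51255906, minus strand: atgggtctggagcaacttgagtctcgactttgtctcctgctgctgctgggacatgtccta
Rnase2b, chr14:51162464-51162523, plus strand: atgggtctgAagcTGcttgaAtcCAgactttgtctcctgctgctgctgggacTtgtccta
Ear2, chr14:44102887-44102946, plus strand: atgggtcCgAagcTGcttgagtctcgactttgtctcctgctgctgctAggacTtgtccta
Rnase2b differed from Rnase2a at 7 and Ear2 at 6 of these positions. Over the whole coding sequence, which lies in 1 exon in each gene, Rnase2a was 83.7% identical to Rnase2b and 79.7% identical to Ear2. Ear2 was closer to the genes outside the measured members, with 95.1% identity to Ear1 and 97% to Ear10.

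**Figure D1:**
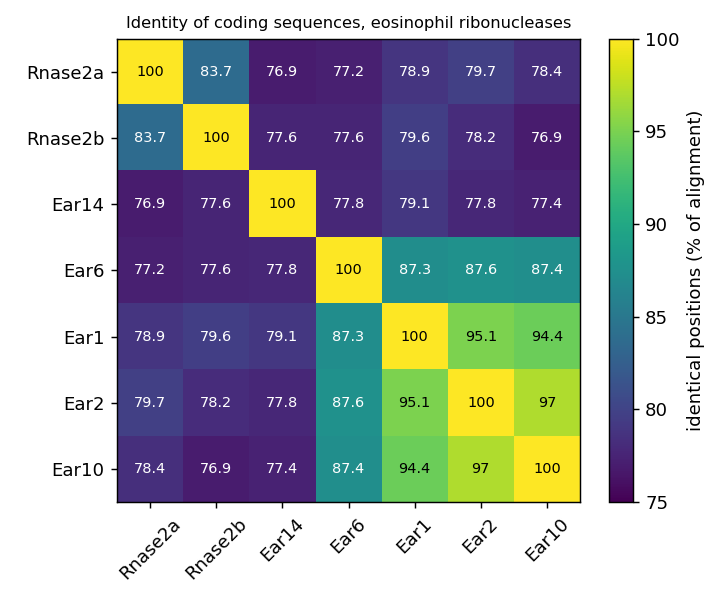
Each cell gives the percentage of identical positions between the coding sequences of 2 eosinophil ribonuclease genes of the mouse, in GENCODE transcripts of GRCm38. Ear1, Ear2 and Ear10 form a block at 94.4% to 97%, while Rnase2a is at 76.9% to 83.7% against every other gene shown.

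These similarities matter for reads of 150 bases, the length that was sequenced. None of the 541 stretches of 150 bases in the Rnase2a transcript, and none of the 610 in that of Rnase2b, occurred in a transcript of another gene, and the same held at 50 bases. In Ear2, 36 of 570 stretches of 150 bases (6.32%) also occurred in Ear10, and 41.5% of its stretches of 50 bases occurred in Ear1, Ear6, Ear10 or the pseudogenes Ear-ps2 and Ear-ps9. Ear2 counts are therefore uncertain, since reads of its copies could have been given to it or lost from it. Ear10 itself had 2 counts in Bach2KO 4 and 0 in the other 7 libraries. In the coordinates of the table (mm39 in the submitters' processing notes), Rnase2b (14:51399717-51400475, plus strand) and Rnase2a (14:51492719-51493569, minus strand) lie 92244 bases apart, and Ear2 (14:44340111-44340991, plus strand) lies 7058726 bases before Rnase2b. No gene of the table overlapped any of the 7 measured members.

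Near their starts the ribonuclease genes also carry a common short stretch. The window of 60 bases around it is shown for the 2 genes with no counts in Bach2WT mice, from RefSeq promoters of the build GRCm38.p6, with capitals on TTATC. This is the reverse complement of GATAA, the core that GATA factors bind; Gata1 is the GATA factor known for its role in eosinophil development.
Rnase2a, chr14:51256108-51256167, minus strand: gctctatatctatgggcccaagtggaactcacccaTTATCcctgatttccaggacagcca
Rnase2b, chr14:51162202-51162261, plus strand: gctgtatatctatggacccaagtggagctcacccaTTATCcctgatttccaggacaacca
The windows differed at 4 positions. The match began 20 bases before the start of Rnase2a and 23 bases before that of Rnase2b, and Ear1, Ear2 and Ear6 had it 3, 6 and 2 bases past the first base of the gene. GATAA in either direction was found in 8 of the 9 members with a promoter entry (all 5 ribonucleases, Ccr3, Siglecf and Il5ra, but not Epx), compared with 25.4% of 32851 promoters of 300 bases. The ribonucleases share an ancestor and so are not separate cases. TGAGTCA, or its reverse complement TGACTCA, a sequence recognised by AP-1 and Bach factors, was found in Ccr3 and Il5ra and in 5.2% of all promoters. Binding was not measured in these samples.

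The libraries held 72299745 to 172029360 counts on genes. Values are given as counts or as CPM, the count relative to a fixed number of counts of the library, after its size was scaled by TMM factors, which compare libraries by the bulk of their genes. A count of 0 is read against a floor of 3 counts per library, which corresponded to 0.0155 to 0.0432 CPM. Between 58.9% and 62.0% of the counts above 0 were even numbers, so that both mates of a read pair may have been counted, and the floor would then be 6 counts. Summed CPM of 7 acinar enzyme genes was 403202 to 458636 in Bach2KO and 437648 to 586445 in Bach2WT libraries, so the defining genes of the labelled tissue took a large share of all counts. None of the 7 passed the adjusted threshold in edgeR, 3 had an unadjusted p-value under 0.05 with lower levels in Bach2KO mice (Cpa1 -0.53, Prss2 -0.57 and Cel -0.45 on the log2 scale), and DESeq2 called Cpa1. Xist and Ddx3y matched the labelled sex in 8 of 8 libraries. Bach2 had 16, 3, 12 and 14 counts in Bach2KO mice 1 to 4 and 4, 4, 31 and 6 in Bach2WT mice 1 to 4, so the counts of the targeted gene were low in both groups, overlapped and could not check the genotype labels.

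Rnase2a, a gene of the eosinophil-associated ribonuclease family, was the most abundant of the measured members. Which cells its transcripts came from, eosinophils, macrophages or others, was not tested. It had 116, 29, 68 and 134 counts in Bach2KO mice 1 to 4 and 0 counts in each of the 4 Bach2WT libraries. Scaled to library size, the Bach2KO libraries held 0.716, 0.35, 0.898 and 0.694 CPM (mean 0.665 ± 0.229 CPM, SD, n = 4). Every Bach2KO library was thus above every Bach2WT library, in females and in males. Against the floor of 3 counts, the mean in Bach2KO mice was at least 22.1-fold higher, and against a floor of 6 counts at least 11.1-fold higher. At the level of Bach2KO 2, the lowest of the group, the Bach2WT libraries would have held 24.3 to 50.3 counts each, and at that of Bach2KO 3, the highest, 62.4 to 129.

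The closest relative of Rnase2a, Rnase2b, was present in fewer libraries. It had 0, 2, 16 and 0 counts in Bach2KO mice 1 to 4 and 0 counts in each Bach2WT library. With 16 of its 18 counts in Bach2KO 3, the gene describes mainly that mouse, and the groups shared the value 0. Its mean CPM in Bach2KO mice lay above a floor of 3 counts and was 0.979 times a floor of 6 counts, so no fold is given.

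Ear2, which macrophages also make, was the ribonuclease with counts in both genotypes. Bach2KO mice 1 to 4 had 28, 10, 67 and 50 counts, which corresponded to 0.173, 0.121, 0.885 and 0.259 CPM. Bach2WT mice 1 to 4 had 30, 7, 18 and 0 counts, which corresponded to 0.333, 0.0533, 0.125 and 0 CPM. The groups overlapped, with Bach2WT 1 above 3 of the 4 Bach2KO libraries and Bach2KO 3 far above the others. The means were 0.359 ± 0.355 CPM in Bach2KO and 0.128 ± 0.146 CPM in Bach2WT mice (SD, n = 4 each). The fitted log2 fold change was 1.47 (SE 0.99), and became 0.52 without Bach2KO 3 and 2.48 without Bach2WT 1.

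**Figure D2:**
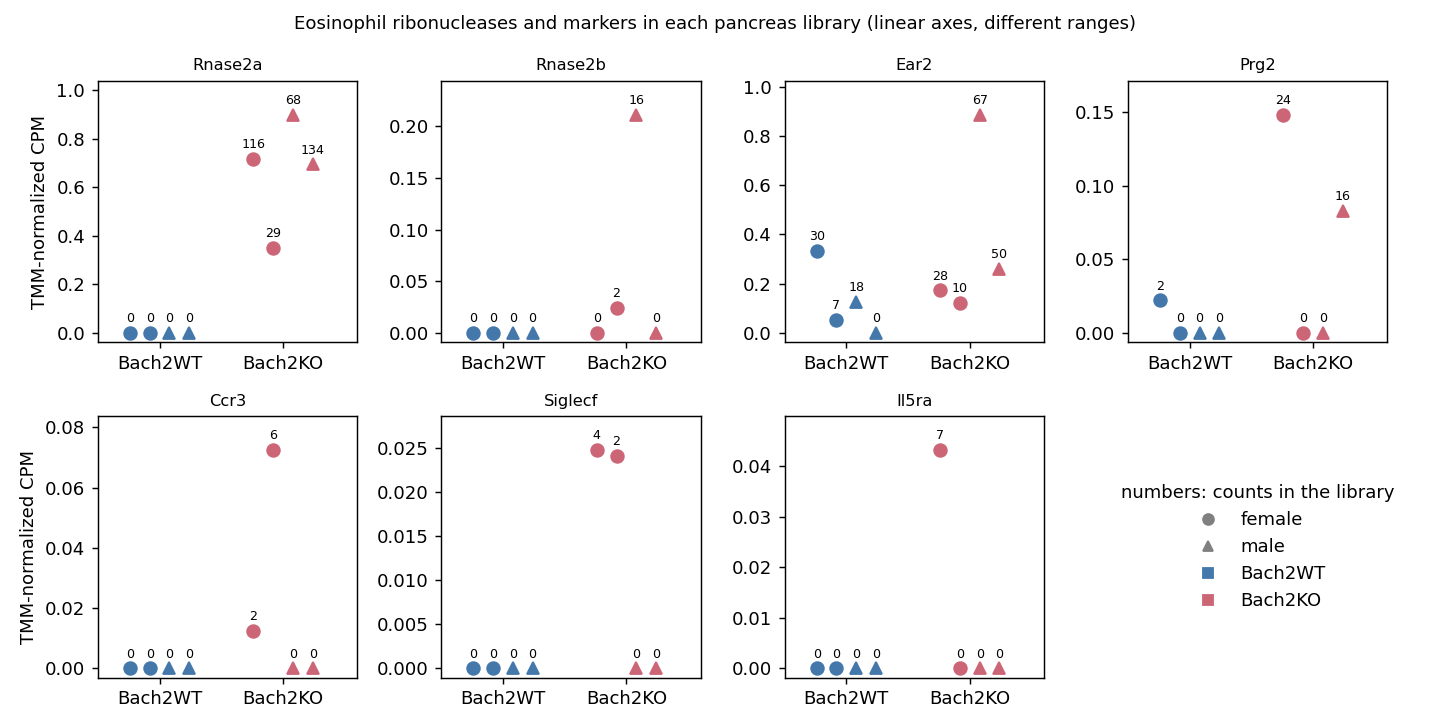
Each panel shows 1 gene in 8 pancreas libraries, with TMM-normalized CPM on linear axes of different range and the count above each point; circles are females and triangles males. Rnase2a has 29 to 134 counts in Bach2KO libraries and 0 in Bach2WT libraries, Ear2 overlaps between the genotypes, and the other genes have counts in 1 to 3 libraries.

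Summed over the 3 ribonucleases, Bach2KO mice 1 to 4 had 144, 41, 151 and 184 counts and Bach2WT mice 1 to 4 had 30, 7, 18 and 0. In CPM the sums were 0.889, 0.495, 1.99 and 0.953 (mean 1.08 ± 0.64) against 0.333, 0.0533, 0.125 and 0 (mean 0.128 ± 0.146), a ratio of means of 8.47 without overlap. Bach2WT 1 held 30 of the 55 Bach2WT counts, and without it the ratio was 18.2. The order held within each sex, with 0.495 to 0.889 CPM in female Bach2KO against 0.0533 to 0.333 in female Bach2WT mice, and 0.953 to 1.99 against 0 to 0.125 CPM in males. The difference of the means was 0.955 CPM, and 0.651 CPM without Bach2KO 3. In bulk tissue, more cells of a type and more RNA per cell cannot be told apart.

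The makeup of the ribonuclease counts varied between mice. Rnase2a supplied 80.6%, 70.7% and 72.8% of them in Bach2KO mice 1, 2 and 4 and 45% in Bach2KO 3, where Ear2 supplied 44.4%. In the 3 Bach2WT libraries with any such counts, all were on Ear2. Bach2KO 3 had the highest CPM of Rnase2a, of Rnase2b and of Ear2.

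**Figure D3:**
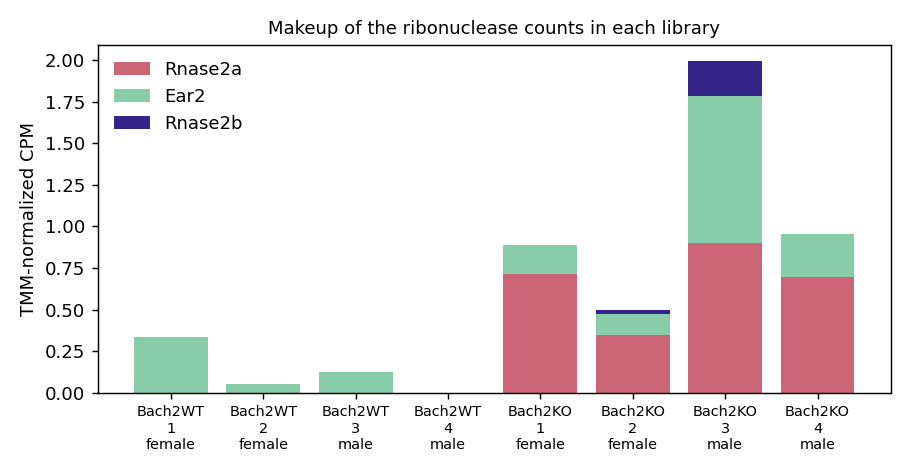
Stacked bars give the TMM-normalized CPM of Rnase2a, Ear2 and Rnase2b in each of the 8 libraries, with the sex below the name. The bars of Bach2WT mice consist of Ear2 alone and reach 0.333 CPM, while those of Bach2KO mice reach 0.495 to 1.99 CPM and contain Rnase2a throughout.

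Among the other markers, Prg2 (major basic protein) was the most abundant. It had 24, 0, 0 and 16 counts in Bach2KO mice 1 to 4 and 2, 0, 0 and 0 in Bach2WT mice 1 to 4. The pooled ratio was 16.9, with a 95% counting interval of 4.39 to 145 that covers counting error only and is no test of a gene chosen by these counts. If both mates were counted, the counting interval would be 2.71 to 701. Neither interval holds the spread between mice. With that spread, a fit without a filter on low counts gave a log2 fold change of 3.26 (SE 2.04). Its 95% interval of -0.89 to 7.42 included 0. The groups overlapped at 0, since 2 Bach2KO mice had no counts. At the level of Bach2KO 1, the libraries of Bach2KO 2 and Bach2KO 3 would have held 12.3 and 11.2 counts, so their zeros lay below what that level would give.

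The receptors were near the limit of detection. Ccr3, the eotaxin receptor, had 2 and 6 counts in Bach2KO mice 1 and 2. Siglecf, an inhibitory lectin of eosinophils and alveolar macrophages, had 4 and 2 counts in the same mice. Il5ra, the interleukin 5 receptor chain, had 7 counts in Bach2KO 1. All 3 receptors were at 0 in both male Bach2KO libraries and in the 4 Bach2WT libraries.

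Prg2, Ccr3, Siglecf and Il5ra together had 37, 8, 0 and 16 counts in Bach2KO mice 1 to 4 and 2, 0, 0 and 0 in Bach2WT mice 1 to 4 (0.102 ± 0.0945 against 0.00555 ± 0.0111 CPM, SD, n = 4 each). The difference of 0.0964 CPM rested in large part on Bach2KO 1, and was 0.0543 CPM without it. Bach2KO 3, with the highest sum of ribonucleases, had none of these 4 genes, whereas Bach2KO 1 had the highest sum of them. Thus 3 of the 4 Bach2KO libraries had counts on the granule protein or a receptor beside Rnase2a. At the Prg2 and Ccr3 levels of their highest libraries, Bach2KO 3 would have held 11.2 and 5.48 counts. For Il5ra and Siglecf the figures were 3.27 and 1.87. All 4 genes were at 0 there, so they did not bear out the label of eosinophil markers in Bach2KO 3.

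Per kilobase of gene length, which allows genes to be compared, Rnase2a stood at 0.963 ± 0.332 CPM per kilobase in Bach2KO mice and Ear2 at 0.5 ± 0.494. These values overlapped between libraries. Rnase2b followed at 0.0776, Prg2 at 0.0689, Ccr3 at 0.00648, Siglecf at 0.00438 and Il5ra at 0.00302 CPM per kilobase, all means of 4 Bach2KO libraries that include zeros. The order among the receptors rests on 8, 6 and 7 counts in all.

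Of the 7 members, Rnase2a and Ear2 passed the filter on low counts. Rnase2a was the 1 gene of 12820 tested (0.00780%) with a higher level in Bach2KO mice at an adjusted p-value under 0.05 in edgeR, which is part of how it was chosen. No gene passed when any 1 of the 8 libraries was left out. Unadjusted p-values under 0.05 were found for 3.90% of the tested genes with higher and 3.56% with lower levels in Bach2KO mice, and 2.56% of the tested genes were higher in Bach2KO mice without overlap. Counts of 0 in every Bach2WT library were common, at 12.5% of all genes of the table, and 5 of the 7 members were among them (Rnase2a, Rnase2b, Ccr3, Siglecf and Il5ra). A count in every Bach2KO library beside 0 in every Bach2WT library was found for 45 genes (0.210% of the table), of which Rnase2a was the member.

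Sex was not used in choosing the genes, and was tested for Ear2 and only described for Rnase2a. In edgeR with genotype as a covariate, Rnase2a differed by a log2 fold change of 0.54 (SE 0.79) between males and females. The 95% interval was -1.22 to 2.31. All 4 Bach2WT libraries were at 0, so this estimate rests on the 4 Bach2KO libraries, through which Rnase2a passed the filter. It is therefore no test of sex. Its levels in Bach2KO mice were 0.694 and 0.898 CPM in males and 0.35 and 0.716 CPM in females, and overlapped. Ear2 differed by 0.29 (SE 1.17, interval -2.26 to 2.83), with an adjusted p-value of 0.98 in edgeR's quasi-likelihood test with genotype as a covariate. The sign for Ear2 turned when Bach2KO 1, Bach2KO 2 or Bach2KO 3 was left out (-0.23, -0.35 and -0.46). For comparison, 4 genes (0.0312% of those tested) passed the threshold, Xist and Ddx3y among them.

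The interaction asks whether the difference between the genotypes depends on sex. For Ear2 it was 3.41 on the log2 scale (SE 1.92, adjusted p = 0.854 in edgeR, interval -0.77 to 7.59). Ear2 was at 0.259 and 0.885 CPM in male Bach2KO against 0 and 0.125 CPM in male Bach2WT mice. In females the levels were 0.121 and 0.173 CPM against 0.0533 and 0.333 CPM, so the genotypes overlapped. No gene passed the adjusted threshold for the interaction, 6.14% had an unadjusted p-value under 0.05, and DESeq2 called 14 genes. For Rnase2a no interaction could be estimated because all Bach2WT libraries were at 0. The intervals span several log2 units, and a difference by sex within them was not detectable at this depth with 2 mice of a sex per genotype.

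Other genes of eosinophil biology were followed in a list of 24 genes for transcription factors, receptors and effectors, of which 20 had a row and 13 were tested. None passed the adjusted threshold in edgeR or in DESeq2. In edgeR, 3 had an unadjusted p-value under 0.05, all with higher levels in Bach2KO mice, and the median log2 fold change was 0.67, beside 0.048 over all genes tested. Csf2ra, the receptor chain for GM-CSF, had 81, 99, 66 and 194 counts in Bach2KO mice and 36, 42, 44 and 34 in Bach2WT mice, with no overlap in CPM (log2 fold change 1.24, SE 0.39, adjusted p = 0.531 in edgeR). Csf2rb2, the chain used for interleukin 3, gave 2.01 (SE 0.91, adjusted p = 0.663 in edgeR) and Alox15, a lipoxygenase that eosinophils and macrophages use, gave 1.03 (SE 0.42, adjusted p = 0.636 in edgeR), both with overlapping groups.

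Among the other tested genes of the list, the transcription factor Gata2 gave 0.77 (SE 0.71), and the surface proteins Il3ra and Adgre1 gave -0.46 (SE 0.43) and -0.27 (SE 0.39), all with overlapping groups. These 3 were named after their values were seen. Other genes of the list were too low to be tested. Gata1 had 10, 2, 0 and 12 counts in Bach2KO mice 1 to 4. Cebpe, which late granulocyte differentiation requires, had 6, 6, 8 and 0, and Cd300lf, a receptor of myeloid cells, had 9, 6, 0 and 12. All 3 were at 0 in the 4 Bach2WT libraries, as was Ear10 and as were 12.5% of all genes of the table. The remaining untested genes had counts in both genotypes. Ltc4s had 9, 2, 2 and 0 counts in Bach2KO mice 1 to 4 and 7, 5, 18 and 0 in Bach2WT mice 1 to 4. Il1rl1 had 14, 4, 0 and 26 against 0, 0, 6 and 0, and Adgre4 had 0, 6, 0 and 2 against 2, 0, 0 and 0. Bach2KO 3 had counts of Cebpe and was at 0 for Gata1 and Cd300lf, as it was for Prg2 and the 3 receptors. The genes Prg3, Ear14 and Hrh4 had no row, and Ear5 had no row under that name, which is an older name of Rnase2b.

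The ligands that nourish or attract eosinophils formed a list of 15 genes, of which 11 had a row and 5 were tested. None passed the adjusted threshold in edgeR, while 1 had an unadjusted p-value under 0.05, and DESeq2 called that same gene, Ccl8. Ccl8, a ligand of several chemokine receptors, had 32, 58, 74 and 76 counts in Bach2KO mice 1 to 4 and 12, 0, 8 and 0 in Bach2WT mice 1 to 4 (log2 fold change 3.55, SE 1.02, adjusted p = 0.513 in edgeR). Ccl11, or eotaxin, had 135, 57, 48 and 70 against 48, 6, 42 and 14 counts, with overlapping groups (1.23, SE 0.61, adjusted p = 0.695 in edgeR). Ccl5 gave 1.46 (SE 0.71, adjusted p = 0.684 in edgeR), also with overlap. The other tested genes, Ccl24 and Il33, gave 1.78 (SE 0.93) and -0.99 (SE 1.12), both with overlapping groups. The median of the 5 tested genes was 1.46, with 4 log2 fold changes positive and 1 negative. Il5, the main eosinophil growth factor, had no row, nor had Il3, Il25 and Areg.

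The remaining RNase A genes were set beside the eosinophil ribonucleases, since they belong to the same superfamily. Rnase1, the pancreatic ribonuclease that acinar cells secrete, stood at 14068 ± 2297 CPM in Bach2KO and 22807 ± 3667 CPM in Bach2WT mice (SD, n = 4 each), lower in all 4 Bach2KO libraries (log2 fold change -0.70, SE 0.18, adjusted p = 0.371 in edgeR). DESeq2 called Rnase1 lower. Rnh1, the intracellular inhibitor of these enzymes, gave -0.40 and Rnase4, an RNase of the liver and other tissues, gave 0.17. Of 14 genes in this list 7 had a row and 5 were tested, none passed the adjusted threshold in edgeR, 1 had an unadjusted p-value under 0.05 (Rnase1), and the median was 0.04. The eosinophil ribonucleases thus had summed levels of 0 to 1.99 CPM in a tissue in which 6 other genes of the superfamily, without the inhibitor, had summed levels of 11324 to 26345 CPM.

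**Figure D4:**
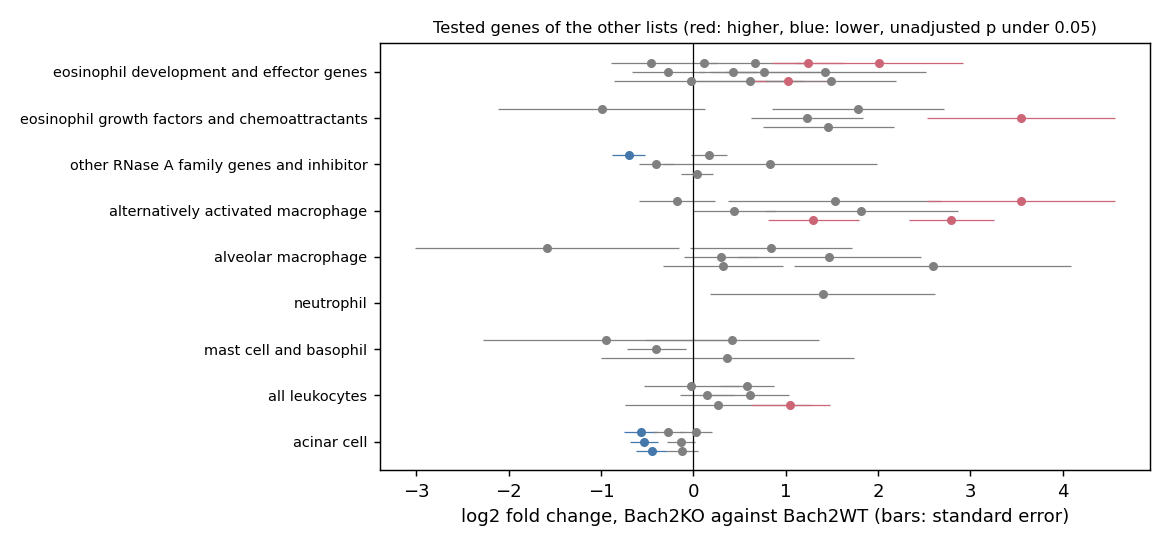
Points give the log2 fold change of each tested gene of the other lists, Bach2KO against Bach2WT, with bars for the standard error; red and blue mark an unadjusted p-value under 0.05. Of the 13 eosinophil development and effector genes, 3 are red, and the medians are 0.67 for these genes, 1.46 for the ligands and -0.27 for acinar cell genes.

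Genes of other cells that could hold the same transcripts moved with the ribonucleases in part. Of 10 genes of alternatively activated macrophages, 7 were tested, none passed the adjusted threshold in edgeR, 3 had an unadjusted p-value under 0.05 with higher levels in Bach2KO mice (Retnla, Ccl8 and Mgl2), and DESeq2 called Retnla, Ccl8 and Chil3. Their summed level was 5.89 to 12.2 CPM in Bach2KO and 1.7 to 4.72 CPM in Bach2WT libraries. Retnla alone supplied 3.06 to 7.56 CPM of it in Bach2KO and 0.216 to 1.23 CPM in Bach2WT libraries. Clec10a (log2 fold change 1.82), Arg1 (1.53), Mrc1 (0.44) and Cd163 (-0.18) were also tested and overlapped between the groups. Retnla, a secreted protein of these macrophages, which eosinophils can also produce, had 495, 293, 572 and 1010 counts in Bach2KO and 111, 114, 31 and 34 in Bach2WT mice (log2 fold change 2.79, SE 0.46, adjusted p = 0.235 in edgeR). Like Rnase2a, it was highest in CPM in Bach2KO 3. Chil3 was at 0 in Bach2WT mice and had 6, 26, 16 and 16 counts in Bach2KO mice 1 to 4.

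For alveolar macrophages, which share Ear1, Ear2 and Siglecf with the members, 9 of 11 genes had a row and 6 were tested, with no gene under an unadjusted p-value of 0.05 in edgeR and 1, Chil3, called by DESeq2. Their summed level was 1.67 to 4.03 CPM in Bach2KO and 0.863 to 3.06 CPM in Bach2WT libraries. The smallest p-values were those of Marco (log2 fold change 2.59, adjusted p = 0.764 in edgeR), Ear2 and Cidec (-1.58, adjusted p = 0.87). In Bach2KO 3, where Ear2 was highest, Marco, Cidec, Krt79 and Siglecf were at 0. Chil3 had 16 counts there, and Itgax had 8 (0.106 CPM, within its Bach2WT range of 0.0348 to 0.259 CPM). Car4 (0.859 CPM) and Plet1 (0.436 CPM) had their highest levels of the 8 libraries in Bach2KO 3. Of 7 lung epithelial genes 4 had a row and none was tested in edgeR, with summed levels of 0.0725 to 0.371 CPM in Bach2KO and 0 to 0.0666 CPM in Bach2WT libraries. Sftpd, a surfactant protein, had 24, 12, 10 and 12 counts in Bach2KO mice 1 to 4, 0 in Bach2WT mice, and was called by DESeq2, while Sftpc, Sftpb and Scgb1a1 had no row. Whether these cells contributed to the members' counts was not tested.

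Neutrophil genes were low, with summed levels of 0.218 to 1.5 CPM in Bach2KO and 0 to 0.344 CPM in Bach2WT libraries. Of 12 genes 10 had a row and 1, Csf3r, was tested (log2 fold change 1.40, adjusted p = 0.859 in edgeR). S100a8 had 4, 12, 40 and 2 and S100a9 had 12, 29, 9 and 6 counts in Bach2KO mice 1 to 4, both were at 0 in Bach2WT mice, and DESeq2 called both. Mpo, Ngp, Mmp8 and Cxcr2 were also at 0 in Bach2WT mice, and each had counts in 1 or 2 Bach2KO libraries. Mast cell and basophil genes overlapped, at 0.942 to 2.55 CPM in Bach2KO and 2.01 to 2.55 CPM in Bach2WT libraries, and none of the 4 tested had an unadjusted p-value under 0.05 in edgeR or was called by DESeq2. Kit, Tpsb2 and Cpa3 had log2 fold changes of -0.40, -0.95 and 0.42. None of the 5 type 2 lymphoid genes with a row passed the filter. Their summed levels overlapped, at 0.106 to 0.386 CPM in Bach2KO and 0 to 0.167 CPM in Bach2WT libraries. Gata3 had 3, 10, 2 and 18 counts in Bach2KO mice 1 to 4 and 4, 0, 0 and 0 in Bach2WT mice 1 to 4. Klrg1 had 0, 10, 0 and 12 against 0, 0, 2 and 0, and Il17rb had 24, 8, 0 and 5 against 0, 0, 16 and 2. Il13 had 6 counts in Bach2KO 3 and 0 in the other 7 libraries.

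Of the 6 genes shared by all leukocytes, 1 (Cd52) had an unadjusted p-value under 0.05 in edgeR, none passed the adjusted threshold in edgeR or DESeq2, and the median was 0.42. Laptm5 gave 0.58 and Coro1a 0.61, and 5 of the 6 had positive log2 fold changes, Ptprc being the exception at -0.02. Ptprc (CD45), the pan-leukocyte phosphatase, had 170, 28, 20 and 93 counts in Bach2KO mice 1 to 4 and 72, 38, 63 and 46 in Bach2WT mice 1 to 4 (0.533 ± 0.356 against 0.547 ± 0.227 CPM, SD, n = 4 each). Set against it, the ribonucleases had 84.7, 146, 755 and 198 counts per 100 Ptprc counts in Bach2KO mice and 41.7, 18.4, 28.6 and 0 in Bach2WT mice. The highest ratio, in Bach2KO 3, rests on 20 Ptprc counts. Set against the summed counts of all 6 leukocyte genes, the ribonucleases had 7.23, 3.04, 15 and 7.62 counts per 100 in Bach2KO mice and 2.1, 0.475, 1.8 and 0 in Bach2WT mice. The groups did not overlap on either scale, with Bach2KO 2 and Bach2WT 1 closest on the second. Both scales were added after seeing the data. The sum holds Rnase2a, which had 0 counts in every Bach2WT library and was chosen by these counts. The separation is therefore a description, and the share of all genes that separate on these scales was not computed. A part of leukocyte content in the difference was not tested.

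**Figure D5:**
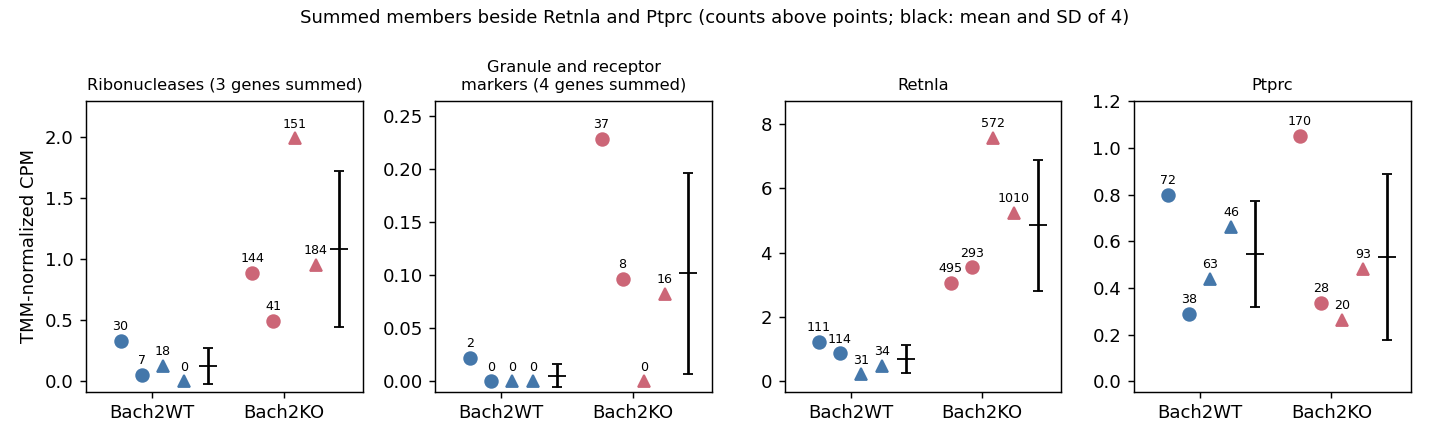
TMM-normalized CPM of the 3 ribonucleases summed, of Prg2, Ccr3, Siglecf and Il5ra summed, of Retnla and of Ptprc in 4 Bach2WT (blue) and 4 Bach2KO (red) libraries, with circles for females, triangles for males, counts above the points and the mean and SD in black. The ribonucleases and Retnla do not overlap between the genotypes, while Ptprc does; Ptprc is the 1 of 6 leukocyte genes without a positive log2 fold change.

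The genes whose log2 CPM over the 8 libraries was most like that of Rnase2a were Rnd1 and Gas2 (Pearson r = 0.966 each), Epha4 (0.957), Acer2 (0.956) and 4930581F22Rik (0.954). Since Rnase2a is at 0 in one genotype, this likeness largely restates the difference between the genotypes, and the libraries also share their depth. All 5 were higher in every Bach2KO than in every Bach2WT library, and none passed the adjusted threshold in edgeR, while DESeq2 called 3 of the 5 (Epha4, Gas2 and Rnd1). On the same measure Retnla was at 0.901, Ear2 at 0.576 and Ptprc at -0.0907.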

How the data were processed

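Total RNA of homogenized pancreas was made into poly-A libraries and read as paired ends by a commercial provider. Per the labels, the submitters' notes name fastp, HISAT2 2.2.1, featureCounts 2.0.6 and the build mm39, and settings for strand and shared reads are not given in the sources used here. The authors deposited 1 table of counts per gene and library with no normalization. It also holds the authors' normalized signal (counts divided by a size factor), their FPKM values, and their own fold changes and p-values, and none of these was used. No row lacked a gene name.

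Counts were tested with edgeR 4.0.16 (quasi-likelihood, TMM, filterByExpr on genotype, 12820 of 21434 genes kept, Benjamini-Hochberg threshold 0.05). Sex was tested with genotype as a covariate, and the interaction with both. The procedure was tested on simulated data with less spread between libraries than these data have. The simulation therefore does not show how the procedure performs on them. Log2 CPM used a prior count of 2. Fold changes of genes that did not pass the filter came from a fit without it. P-values measure the spread between 4 mice per genotype. The 95% intervals of log2 fold changes use the degrees of freedom of the test. The counting interval of Prg2 is exact, and that interval and the floors cover counting error only. Alternatives were DESeq2 1.42.0, RLE factors, other filters, sex or replicate number as a term, library sizes without digestive enzymes, and leaving out each library.

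The genes and lists were chosen with earlier results of these data known. Named were all members, for each list the genes past the threshold or else the 3 with the smallest p-values, markers at 0, and the 5 genes most like Rnase2a. Single genes beyond this rule (Chil3, Car4, Plet1, Sftpd, S100a8, S100a9 and Il13 among them) were named after their values were seen. Sequences came from GENCODE M21 transcripts and RefSeq promoters, matched by symbol: all 3 measured ribonucleases had a transcript, and 9 of 10 members had a promoter entry (Prg2 had none). These are of GRCm38, not of the build of the counts.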

Additional observations from a re-analysis of the deposited data

Results flagged for a closer look

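Within a genotype, a library was noted when its distance to the nearest of the other 3, divided by the range of the group, was above the 95% critical value of Dixon's test, which chance exceeds in about 1 of 20 groups and more often in sparse counts with ties at 0. Rnase2b in Bach2KO 3 stood at 0.211 CPM (16 counts). Ccr3 in Bach2KO 2 stood at 0.0724 CPM (6 counts). Il5ra in Bach2KO 1 stood at 0.0432 CPM (7 counts). Prg2 in Bach2WT 1 stood at 0.0222 CPM (2 counts), and the sum of Prg2, Ccr3, Siglecf and Il5ra in that library had the same value, since Prg2 supplied both of its counts.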

How the results depend on the processing

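At an adjusted p-value under 0.05, the genotype comparison called 1 gene (Rnase2a). It called 1 also with RLE factors or with library sizes without digestive enzymes. DESeq2 called 75 (52 higher, 23 lower in Bach2KO mice) and no filter on low counts 73 (55 higher, 18 lower). In edgeR, 0 genes were called with at least 10 counts in every library (874 at an unadjusted p under 0.05; Rnase2a is not among the genes tested), with sex as a covariate (1027), with the replicate number as a block (972), with counts divided by 2, added after seeing the data (944), and with any 1 library left out (0 to 0 genes; 690 to 1380). The replicate numbers did not pair the libraries (correlations of deviations 0.212, -0.0344, -0.0409 and -0.0543). The sex comparison called 4 genes in edgeR, 19 with DESeq2, 152 with no filter, 1 with at least 10 counts in every library and 2 to 9 with a library left out. The interaction called 0 genes in edgeR, 14 with DESeq2, 92 with no filter and 0 to 6 with a library left out.

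The difference in summed ribonucleases was 0.955 CPM (0.651 to 1.15 with a library left out), 5.1 CPM without digestive enzymes in the library size, 274 counts per 100 Ptprc counts, and 7.13 counts per 100 counts of 6 leukocyte genes, both scales added after seeing the data. That of the other markers was 0.0964 CPM (0.0543 to 0.13), and 0.515 CPM without digestive enzymes. A floor of 6 counts, also added later, took the bound on Rnase2a from 22.1 to 11.1-fold. No log2 fold change of a member between the genotypes turned its sign under these alternatives, and that of Il5ra became 0 without Bach2KO 1. Between the sexes, that of Ear2 turned from 0.29 to -0.23, -0.35 and -0.46 without Bach2KO 1, 2 or 3. For Prg2 and the receptors, counts of 0 to 24 a library limit what can be compared.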

Other observations

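Beside Rnase2a, the genes with the most counts among the 45 that were at 0 in every Bach2WT library and present in every Bach2KO library were picked after their values were seen, and are given as values. Kcnj15, a potassium channel, had 189, 1, 2 and 46 counts in Bach2KO mice 1 to 4. Chil4, a chitinase-like protein close to Chil3, had 68, 89, 2 and 11 counts. Mmp7, a matrix metalloproteinase, had 95, 10, 12 and 16 counts. Il7r, the interleukin 7 receptor of lymphocytes, had 93, 8, 10 and 10 counts. In each of these 4 genes at least 1 Bach2KO library had 10 counts or fewer, whereas the lowest Rnase2a count in a Bach2KO library was 29. Other genes of the 45 were also above 10 counts in every Bach2KO library. Among them, Epha8 had 16, 32, 20 and 24 counts and Epha4 had 19, 19, 15 and 17. Rnase2a was itself chosen by such counts.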
